A study of Mus musculus with 2 samples.

Results

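The cells described here are naive-like CD8 T cells of the spleen in which no transcript of Ccr9, Itgae or Ly6c2 was counted. The cells were chosen by measured counts of 7 genes and by the quality of each barcode. A barcode was taken when it held at least 500 genes and at most 10% mitochondrial UMIs (unique molecular identifiers, 1 per captured transcript). It also had to hold at most 3 UMIs of Ccl5, 0 of Ly6c2, Gzmk, Ccr9 and Itgae, and at least 1 UMI of Igfbp4 or Ccr7. The rule found 1167 of 14762 barcodes (7.91%), of which 722 lay in the old recipient library and 445 in the young donor library.

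In the study, total CD8 T cells of CD45.1 C57BL/6J mice aged 3 months were moved into CD45.2 C57BL/6J mice aged 24 months, all wild type. After 1 month, viable CD3e+CD8a+ spleen cells were sorted as CD45.2+ (old recipient) or CD45.1+ (young donor), so both populations had shared an aged host for that time. Each population gave 1 droplet library of 5′ gene expression, and the labels do not say how many mice or pools stand behind it. With 1 library a group no difference was tested, library, age, CD45 allele and transfer cannot be told apart, and every interval below is a 95% interval of counting error only. Of the barcode sequences, 105 occurred in both libraries, 10 of these met the rule in 1 library and 0 in both. Recipient naive cells summed to 5001000 UMIs and donor naive cells to 3225048. A median recipient cell had 6964 UMIs from 1868 genes, a median donor cell 7253 from 1909.

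Naive CD8 T cells have left the thymus and have not met their antigen. They circulate through spleen and lymph nodes with the help of homing receptors such as CCR7, and the transcription factors TCF-1, LEF-1 and FOXO1 hold them quiescent. CCR9 and the integrin chain encoded by Itgae mark naive CD8 cells that carry gut- and epithelium-directed receptors. Ly6C, whose chain Ly6c2 encodes, is found on memory CD8 T cells and on part of the naive ones. Levels are given as CPM, the counts of a gene scaled to a common total over the same cells, and ratios as log2 of old recipient over young donor unless another pair is named.

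The values that chose the cells are a description only. Barcodes passing the first 2 filters numbered 5619 and 8001, and 2797 and 2184 of them had at most 3 UMIs of Ccl5. Requiring Ly6c2 at 0 left 1579 and 807 cells, and Gzmk at 0 left 1562 and 783. Igfbp4, whose product binds insulin-like growth factors, or Ccr7 was found in 1474 and 752 of these, so this step removed few cells. Requiring Ccr9 and Itgae at 0 removed 752 cells in the recipient and 307 in the donor. The naive cells were thus 11.7% (10.9% to 12.5%) of recipient barcodes and 5.18% (4.72% to 5.67%) of donor barcodes by exact binomial intervals.

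**Figure D1:**
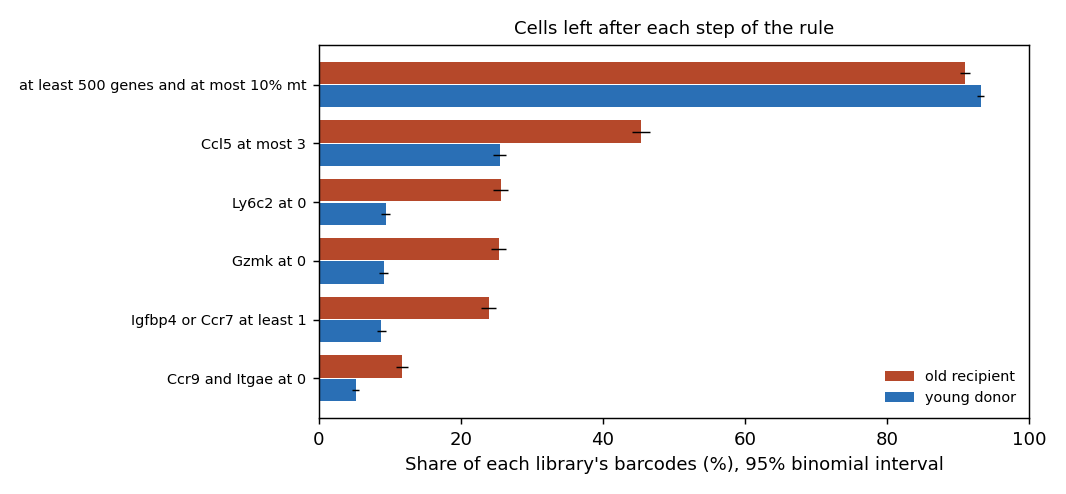
Share of each library's barcodes left after each step of the rule (x axis, percent, bars from 0, exact 95% binomial intervals), with the steps in order from top to bottom and old recipient in red, young donor in blue. The last step leaves 11.7% and 5.18% of barcodes, and the Ccl5 and Ly6c2 steps are where the donor library loses most of its cells.

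Both Igfbp4 and Ccr7 were present in 66.9% of recipient and 69.4% of donor naive cells, Ccr7 alone in 27.7% and 22.7%, and Igfbp4 alone in 5.40% and 7.87%. Ccl5 was at 0 in 68.7% and 79.6% of them. At the Ccl5 limit, the 16 recipient cells with 3 UMIs had 320.5 CPM of Lef1 and the 16 with 4 to 9 UMIs, just outside, had 479 CPM. In the donor, 1 cell stood at 3 UMIs and 6 cells at 4 to 9. Few cells therefore lay near that limit. Many lay near the limits at 0, since 419 recipient and 194 donor cells were left out for a single UMI of Ccr9 or Itgae, and 167 and 111 for a single UMI of Ly6c2.

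The label was checked on naive markers that the rule did not use. Lef1 (chromosome 3, 131110471 to 131224356, GRCm38), the gene of the transcription factor LEF-1, stood at 388 CPM in recipient cells, interval 370.5 to 405, and at 355 CPM in donor cells, interval 335 to 377. In cells of the same libraries with at least 10 Ccl5 UMIs, which are memory or effector cells by that chemokine, it had 169 and 187 CPM. Actn1 (chromosome 12, 80167547 to 80260371), which encodes the actin crosslinker alpha-actinin-1, had 194 and 178 CPM against 74.7 and 85.2. Both markers were thus higher in the naive cells in each library. After thinning each cell to 3500 UMIs, 70.9% and 67.4% of naive cells had a Lef1 UMI (86.0% and 85.6% unthinned), against 38.1% and 44.0% of Ccl5 cells (51.2% and 65.7% unthinned), whose median depths were 5799 and 7877 UMIs.

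Cd8a stood at 637 and 643 CPM and Cd8b1 at 1758 and 1682, the genes of the coreceptor used in the sort. Cd4 had 0 UMIs in both libraries, which allows up to 0.738 and 1.14 CPM. Ebf1 and Pax5 of the B cell list, Ncr1 and Klra8 of the NK cell list and Rag1 and Rag2 of the thymocyte list were also at 0. Other members of these lists were counted. Cd79b of B cells had 30.0 and 28.8 CPM and Eomes of the NK cell list 14.2 and 12.7. Of the thymocyte list, Cd1d1 had 22.2 and 19.8 CPM and Dntt 9.80 and 10.5. Among markers of 12 other cell types, the summed level per list ran from 0 CPM for platelets in the recipient to 233 CPM for B cells in the recipient. The B cell sum came mostly from Ighm (196 and 162 CPM), with Ms4a1, Ebf1 and Pax5 at 0 in both libraries. The list of CD4 T cell genes summed to 20.996 and 7.13 CPM, mostly from Trat1, a receptor adaptor gene, at 15.8 and 4.96 CPM, and Trat1 was also 16.6 and 3.58 CPM in Ccl5 cells. The part of such transcripts in the results below was not tested.

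Set against Ccl5 cells, the naive cells had lower levels of genes such as Gzma, Ccl4 and Gzmm, and higher levels of Ramp1, Rgcc and Dapl1. A gene was counted when its log2 ratio of naive over Ccl5 cells was at least 1 the same way in both libraries, among 10068 genes with at least 100 UMIs. By this count 105 genes (1.04%) were higher and 556 (5.52%) lower in naive cells. Since Ccl5 level separated the cells, these ratios are a description. Gzma, Ccl4, Lrrk1, Gzmm, Ccl3, Klre1, Klrc1, Samd3 and Ccr2 were among the lowest, each with at most 7 UMIs over all naive cells of a library. Ccl4, a chemokine gene of activated T cells, had 1.20 CPM in recipient naive cells and 0.310 in donor naive cells, against 240.5 and 88.1 CPM in Ccl5 cells. Gzma, a granzyme gene, had 2 UMIs in recipient and 0 in donor naive cells.

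All 15 cytotoxic effector genes of a list chosen for these cells were lower past the fold, against 5.52% of all genes. The levels of Prf1, the perforin gene, were still 25.4 and 26.7 CPM in naive cells, against 92.3 and 82.6 in Ccl5 cells. Of 20 memory genes, 17 were lower past the fold. Il2rb, which encodes CD122, the shared receptor chain for IL-2 and IL-15, had 73.8 and 67.9 CPM against 404 and 438 in Ccl5 cells. Nkg7, a cytotoxic granule gene, was lower by log2 ratios of -1.79 and -1.55 but remained at 703 and 629.8 CPM in the naive cells. Plac8 went the other way, with ratios of 0.63 and 0.21. Of 15 cell cycle genes, 11 were lower.

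The genes highest in naive cells were Ramp1, Rgcc, Actn2, Tgtp1, Rflnb, Tspan32, Ppic, H2-DMa, Dapl1 and Tdrp. Ramp1 (chromosome 1, 91179822 to 91225196), a coreceptor subunit for the neuropeptide CGRP, had 86.8 and 58.9 CPM in naive cells against 10.1 and 3.61 in Ccl5 cells, log2 ratios of 3.10 and 4.03. Rgcc (chromosome 14, 79288756 to 79301645), a regulator of the cell cycle, had 139 and 132 CPM against 23.8 and 16.7, ratios of 2.55 and 2.98. Both genes were thus higher in naive cells by more than 2 on the log2 scale in each library. Dntt, the terminal transferase gene used in receptor rearrangement, was low but clear at 9.80 and 10.5 CPM against 0.971 and 0.744. Of 19 naive surface and signalling genes, 5 were higher past the fold (Actn1, Dapl1, Als2cl, Ramp1 and Tspan32), against 1.04% of all genes.

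**Figure D2:**
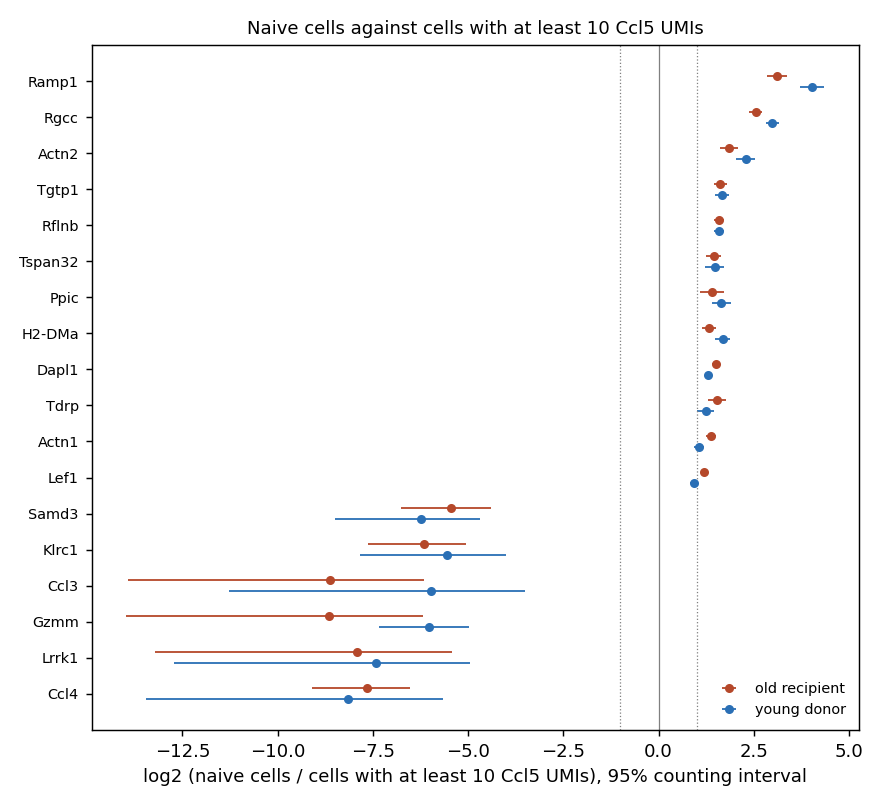
Log2 ratio of naive over Ccl5 cells (x axis, 95% counting intervals) in the old recipient (red) and young donor (blue) for named genes among the highest and lowest with Lef1 and Actn1. Dotted lines mark ratios of -1 and 1, 18 genes are drawn, and 3 with 0 UMIs in the naive cells of 1 library are left out. Both libraries place Ramp1 and Rgcc highest, and the lowest genes have wide intervals because few UMIs were counted.

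The genes above were picked for their high ratios, so they are no measure for other genes. The factors that define naive cells are therefore given on their own. Lef1 had log2 ratios of naive over Ccl5 cells of 1.20 and 0.93. Of 13 measured naive regulators, 0 passed the fold of 1 in both libraries, and the list medians were 0.26 and 0.09, against -0.18 and -0.12 over all genes. Tcf7, the gene of TCF-1, had 307 and 306 CPM in naive cells against 228 and 235 in Ccl5 cells. Il7r, the receptor of the survival cytokine IL-7, was lower in naive cells at 292 and 324 CPM against 412 and 466. Naive and Ccl5 cells therefore differed in Lef1, Actn1 and Dapl1 more than in Tcf7.

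Between the libraries the naive cells were close to each other. Among 5879 genes with at least 100 UMIs, the log2 ratio was at least 0.5 for 147 (2.5%) higher in the old recipient and 86 (1.46%) lower, together 3.96%. The median ratio was 0.04 and the median half-width of an interval 0.37. Among 2028 genes with at least 400 UMIs, 18 (0.888%) passed the fold in naive cells and 44 (2.17%) of the same genes in Ccl5 cells. Over the 9908 genes with at least 100 UMIs in Ccl5 cells, which hold more UMIs in sum, 6.96% were higher and 2.14% lower, together 9.1%. Across the 2028 genes with at least 400 UMIs only, the log CPM of the naive cells of the 2 libraries had a Pearson r of 0.995. Ratios in naive and Ccl5 cells had a Pearson r of 0.22 over 5876 genes, which share the libraries and are not independent.

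**Figure D3:**
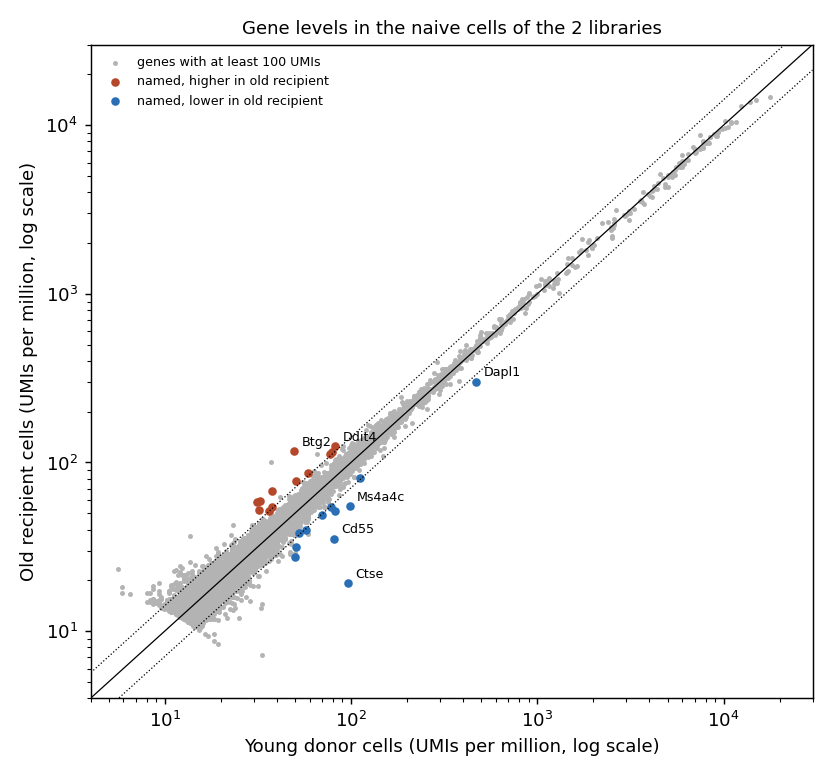
Level of each gene with at least 100 UMIs in the naive cells of the young donor (x axis) and the old recipient (y axis), both in CPM on log scales. The solid line marks equal levels and the dotted lines a log2 ratio of 0.5 either way, and the named genes higher in the recipient are red and those lower blue. Most genes lie within the dotted lines, and Ctse, Cd55 and Dapl1 lie below them.

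Of 13 naive regulators, 0 passed the fold of 0.5, with a median of 0.00, a count too small to set apart from the 3.96% of all genes. Of 19 naive surface and signalling genes, Ramp1 and Tspan32 were higher and Dapl1 and Cd55 lower past the fold, with a median of -0.06, where 2.5% and 1.46% of all genes passed it. Lef1 had a ratio of 0.13 [0.02, 0.23], Tcf7 of 0.00 [-0.11, 0.12] and Klf2, which keeps the exit receptor S1pr1 on, of 0.02 [-0.05, 0.09]. Foxo1 stood at 96.2 and 99.2 CPM and Bach2, a repressor of effector genes, at 29.4 and 31.3. Ratios were 0.12 for Actn1, 0.14 for S1pr1, -0.15 for Il7r and -0.12 for Bcl2, the survival gene. Ccr7 and Igfbp4, which the rule used, had ratios of 0.05 and 0.20. Over all passing barcodes the ratio of Igfbp4 was 1.33. Before the Igfbp4 or Ccr7 step it was 0.11, in a set that still held the cells with Ccr9 or Itgae.

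Dapl1 was the most abundant transcript past the fold among the named genes. It lies at chromosome 2, 59484653 to 59505020 on the plus strand, and encodes a small protein related to the death-associated protein family. Recipient naive cells had 302 CPM (interval 287 to 318) and donor naive cells 472 (interval 448 to 496), a ratio of -0.64 [-0.75, -0.54]. After thinning, 38.7% of recipient cells had a Dapl1 UMI against 59.9% of donor cells (47.1% and 69.9% unthinned). Cells with a Dapl1 UMI held 2.58 and 2.80 thinned UMIs on average. In Ccl5 cells the levels were 106 and 193 CPM, a ratio of -0.86, and 16.0% and 30.4% of thinned cells had a UMI (19.7% and 38.1% unthinned).

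The Dapl1 level also differed with the genes that bounded the set. In the recipient it was 179 CPM (163 to 196) in naive cells with at least 2 UMIs of Ccr9 and Itgae, 248 (231 to 266) with 1, 302 with none, 381 (348 to 416) with 1 UMI of Ly6c2 and 483 (465 to 501) with at least 2. The intervals of these 5 recipient sets do not overlap. In the donor the same sets had 474 (431 to 521), 464 (431 to 499.9), 472, 545.5 (497 to 598) and 585 (568 to 601) CPM. Those donor values overlap from the first set to the third. The 2 libraries were therefore furthest apart in cells with Ccr9 or Itgae and nearest in cells with Ly6c2.

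**Figure D4:**
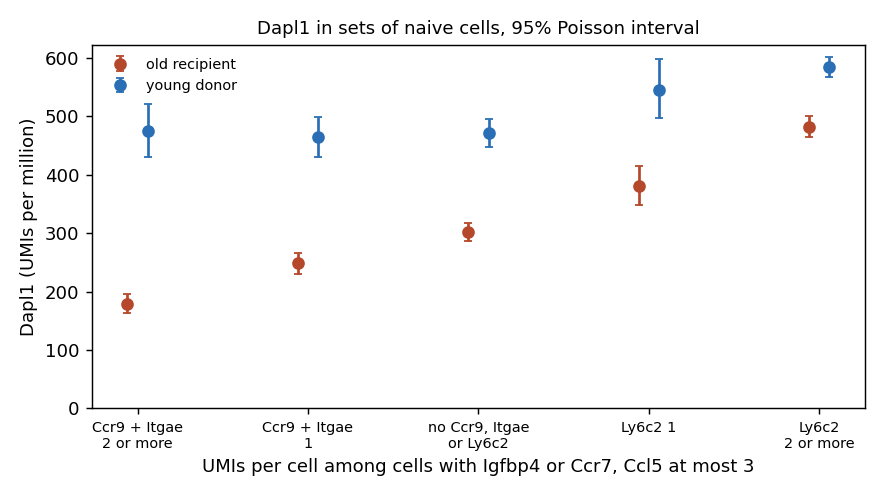
Dapl1 level in CPM (y axis, from 0, exact 95% Poisson intervals) in 5 sets of cells that share the naive rule but for Ccr9, Itgae and Ly6c2, with old recipient in red and young donor in blue. The recipient values climb from 179 to 483 across the sets from left to right, and the donor values run from 464 to 585.

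The promoter of Dapl1 is shown because it was the only 1 of 8 matched promoters, of the 10 genes highest in naive cells, to hold the core motif GTAAACA of FOXO factors. It is the 250 bases before the start in RefSeq (chr2:59484403-59484652, plus strand, GRCm38.p6), with the motif in capitals, 164 bases before the start.
Dapl1 promoter: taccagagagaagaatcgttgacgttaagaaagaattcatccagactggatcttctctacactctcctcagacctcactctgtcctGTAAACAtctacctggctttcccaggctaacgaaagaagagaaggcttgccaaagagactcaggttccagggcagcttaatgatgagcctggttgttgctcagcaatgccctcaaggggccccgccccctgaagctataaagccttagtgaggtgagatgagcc
The motif or its reverse complement TGTTTAC occurred in 1040 of 32851 such windows (3.17%), so a match is not rare and says nothing of binding. The motif was chosen after the ratios had been seen.

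Among genes with at least 50 CPM in 1 library, Ctse and Cd55 had the lowest ratios of recipient over donor. Fcgrt, which encodes a receptor chain for IgG, lay below that level at 13.8 and 32.9 CPM, with a ratio of -1.25 [-1.71, -0.80]. Ctse (chromosome 1, 131638306 to 131675505), the cathepsin E gene, had 19.2 CPM (interval 15.5 to 23.4) against 95.8 in the donor (interval 85.4 to 107), a ratio of -2.32 [-2.67, -1.98], and 5.55% and 27.3% of thinned cells had a UMI (12.05% and 47.9% unthinned). In Ccl5 cells its ratio was -2.02, close to that in naive cells. Cd55 (chromosome 1, 130439027 to 130462744), which encodes the complement decay-accelerating factor, had 35.4 CPM (interval 30.4 to 41.0) against 81.2 (interval 71.7 to 91.7), a ratio of -1.20 [-1.48, -0.92], against -0.27 in Ccl5 cells. In the recipient the Cd55 level was nearly the same in naive and Ccl5 cells (35.4 and 35.8 CPM), whereas in the donor it was higher in naive cells (81.2 against 43.1). Ms4a4c (-0.84), Ppic (-0.69), Atp2b1 (-0.67), a plasma membrane calcium pump gene, and Sidt1 (-0.48) were lower too. Bmyc (-0.53), Gramd3 (-0.51), Ahnak (-0.51), Cks2 (-0.87), a cyclin kinase subunit gene, and Phf11b (-0.46) complete the 12 lowest. With the rule applied to thinned counts, Ppic and Bmyc fell short of the fold at -0.41 and -0.49, and without Ccl5-positive cells Gramd3 did at -0.48.

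Among genes with at least 50 CPM in 1 library, Btg2 had the highest ratio in naive cells. It lies at chromosome 1, 134075170 to 134079120, and encodes an antiproliferative protein that speeds the loss of mRNA in quiescent T cells. It stood at 116 CPM (interval 107 to 126) against 49.6 in the donor (interval 42.2 to 57.9), a ratio of 1.23 [0.98, 1.49], and in Ccl5 cells it was 144 and 65.2 CPM, a ratio of 1.15. After thinning, 33.1% and 16.3% of naive cells had a Btg2 UMI (52.4% and 29.0% unthinned), against 38.4% and 19.6% of Ccl5 cells (56.8% and 37.6% unthinned). The difference was thus about as large outside the naive pool. Its relative Btg1, far more abundant at 617 and 629 CPM, had a ratio of -0.03. Of 16 quiescence genes, Btg2 and Ddit4 passed the fold as higher and Tob1 (13.4 and 23.3 CPM) as lower, where 2.5% and 1.46% of all genes did, with a list median of -0.0048.

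Some genes were higher in recipient naive cells with a smaller ratio in Ccl5 cells. Sgk1, a glucocorticoid-induced kinase gene, had 58.2 and 31.3 CPM, a ratio of 0.89 [0.56, 1.23], against -0.04 in Ccl5 cells, and Ddit4, an inhibitor of mTOR signalling induced by stress, had 124 and 82.2 CPM, a ratio of 0.60 [0.39, 0.81] against 0.13. Without Ccl5-positive cells the Ddit4 ratio was 0.41, short of the fold. On the list of glucocorticoid and stress genes, these 2 of the 7 members with at least 100 UMIs passed the fold, against 3.96% of all genes, and Tsc22d3, which encodes GILZ, had a ratio of -0.08 and Txnip of -0.20. Gstp3 (0.55), Fibp (0.53) and Dap (0.51) also had smaller ratios in Ccl5 cells (0.14, 0.20 and 0.19). Each fell short of the fold under another setting, Dap at 0.24 and Fibp at 0.45 with the rule on thinned counts and Gstp3 at 0.37 without Ccl5-positive cells. Ramp1 (0.56), Tspan32 (0.61), Sp140 (0.55) and Hist1h2ap (0.69), a histone gene, had ratios of 1.49, 0.63, 0.73 and 1.70 there. With the rule on thinned counts Ramp1 was at 0.40 and Tspan32 at 0.37 in naive cells, without Ccl5-positive cells Sp140 was at 0.47, and without the 3 most common Trbv segments Hist1h2ap was at 0.49. None of these differences between the 2 kinds of cell was tested.

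**Figure D5:**
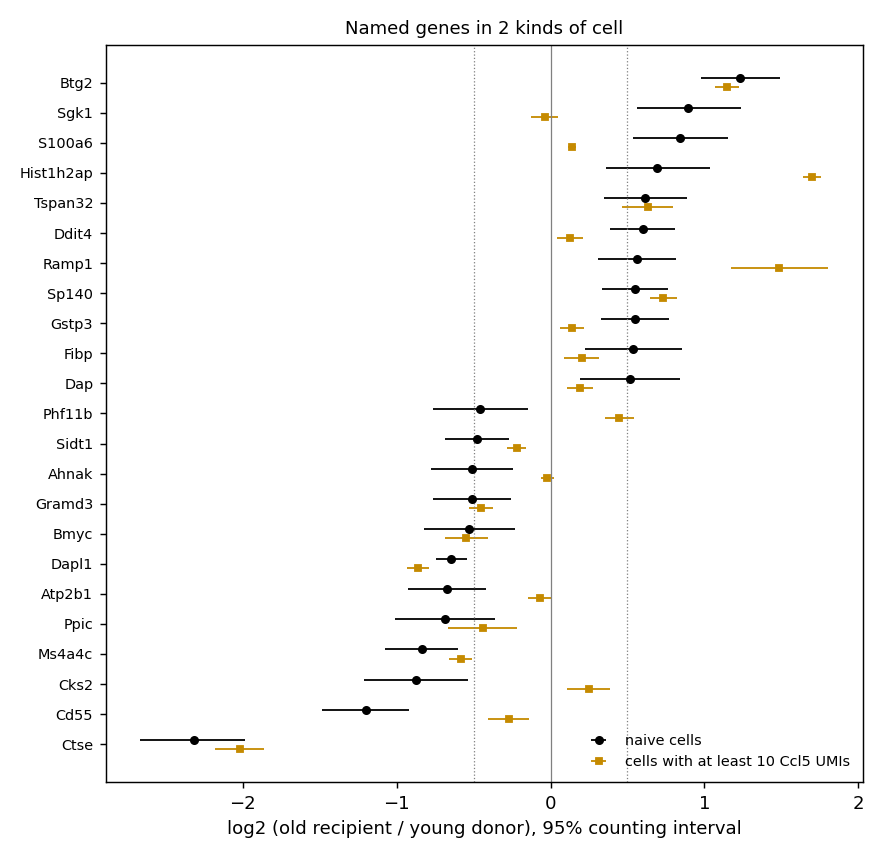
Log2 ratio of old recipient over young donor (x axis, 95% counting intervals) for the named genes in naive cells (black circles) and in cells with at least 10 Ccl5 UMIs (yellow squares), with dotted lines at -0.5 and 0.5 and Ccl5 itself left out. Ctse and Btg2 have like ratios in both kinds of cell, while Sgk1 and Cd55 stand apart from 0 mainly in the naive cells.

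S100a6, which encodes a calcium-binding protein of activated and memory cells, had 67.8 and 37.8 CPM, a ratio of 0.84 [0.54, 1.15], but rested on few cells. It was found in 81 recipient and 27 donor cells, and single cells held 52 of 339 and 67 of 122 UMIs. Without cells holding any Ccl5 UMI the ratio was -0.012, and without cells holding at least 3 UMIs of Lgals1, S100a4 and S100a6 it was 1.99. Ccl5 itself, which the rule capped, had 59.2 and 32.6 CPM. The 5 cytotoxic effector genes with at least 20 UMIs had a median ratio of 0.84, which was -0.057 without Ccl5-positive cells. Cells with at least 3 thinned UMIs of Lgals1, S100a4 and S100a6 were 8.18% and 10.5% of the naive cells, against 66.4% and 72.9% of Ccl5 cells, and had 281 and 152 CPM of Itgb1 against 46.3 and 46.1 in the other naive cells.

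Cd5, whose surface level tracks how strongly a naive T cell recognises self, had 88.8 CPM (interval 80.7 to 97.4) against 62.9 (interval 54.6 to 72.2), a ratio of 0.50 [0.25, 0.74] just short of the fold. Its relative Cd6 had 99.4 and 73.5 CPM, a ratio of 0.44 [0.21, 0.66]. The other genes of the receptor complex differed less, with ratios of 0.11 for Cd3e, -0.01 for Cd8a, 0.05 for Lck and 0.26 for Zap70, and 0 of 15 members passed the fold, beside 3.96% of all genes. In Ccl5 cells the ratio of Cd5 was 0.35. Il2rb (0.12 [-0.13, 0.37]) and Cd44 (0.52 [-0.16, 1.23], on 60 and 27 UMIs) had intervals that hold 0.

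Of 12 memory genes with at least 100 UMIs, 3 were lower in recipient naive cells past the fold and 0 higher, where 1.46% and 2.5% of all genes were. Of all genes, 3.96% passed the fold either way, the share to hold against the remaining lists. These were Cxcr3, a homing receptor of memory cells (18.2 and 27.0 CPM), Il18r1 (26.2 and 40.6) and Ahnak (48.8 and 69.5). Without Ccl5-positive cells the Ahnak ratio was -0.40, short of the fold. Interferon response genes had a median of 0.01, with 1 of 18 past the fold (Rtp4, 0.56), and MHC class I genes a median of 0.02, with 0 of 13. Only members with at least 100 UMIs were counted in these lists. None passed the fold among homing receptors (0 of 13), cytokine receptors (0 of 13) and survival genes (0 of 16). Nor did glycolysis genes (0 of 13), oxidative phosphorylation genes (0 of 18), chaperones (0 of 12) and cell cycle inhibitors (0 of 8). Some members with fewer UMIs lay past it, such as Cxcr4 of the homing list, with 72 and 3 UMIs and a ratio of 3.95. Nr4a1, a gene induced by receptor signals, was lower in the recipient at 8.80 and 18.3 CPM, but 48 of its 59 donor UMIs lay in 1 cell.

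Ctse, Cd55 and Btg2 lie on chromosome 1 near Ptprc (138062861 to 138175708), the gene of CD45, whose alleles differ between donor and recipient by design. Of 40 genes with at least 100 UMIs within 10 Mb of Ptprc, a window chosen after these ratios were seen, 6 (15%) passed the fold in naive cells, against 3.96% of all genes. These were Btg2, Klhl12, Rnpep and Gm19705, higher in the recipient, and Cd55 and Ctse, lower. Btg2, Cd55 and Ctse were known before the window was chosen and count among the 6, so the 15% is a description only. Rnpep, an aminopeptidase gene, had 23.4 and 5.58 CPM, a ratio of 2.07 [1.34, 2.87]. Ptprc itself had 449.7 and 409.6 CPM. Alleles of neighbouring genes, carried along with CD45.1, and age cannot be told apart here.

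Naive cells with Ccr9 or Itgae, otherwise chosen alike, were the nearest set, with median depths of 7268 and 7849 UMIs. Among 7642 genes, a log2 ratio of at least 0.5 the same way in both libraries was reached by 25 (0.327%) higher and 28 (0.366%) lower in the cells without these genes. The named genes below are the 6 with the highest and the 6 with the lowest ratios by the library nearer 0. Of these only Cxcr6 and Hist1h2ap pass that fold in both libraries. The cells without Ccr9 and Itgae had less Cxcr6, a receptor for tissue residence, at 37.2 CPM in both libraries against 54.3 and 66.5, and less Rgcc, Ramp1, Actn2, Cd7 and Hist1h2ap. They had more Id3, an inhibitor of E proteins kept by naive cells, at 94.8 and 81.5 CPM against 63.3 and 64.0. They also had more Cks2, Sidt1, Slc38a2, Nr1h2 and Safb, whose donor log2 ratio of 0.29 had an interval of [-0.11, 0.70] that holds 0. Igfbp4 was lower in them, at 570.3 and 495 CPM against 696 and 695.5, although the rule asked for Igfbp4 or Ccr7 in both sets. No naive regulator passed the fold (0 of 13).

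Naive cells with Ly6c2, also chosen alike, numbered 821 and 1076 and were deeper, at medians of 8349 and 8324 UMIs. Against them, the cells without Ly6c2 had less Cxcr3, at 18.2 and 27.0 CPM against 62.7 and 123, less Plac8 at 183 and 193 against 302 and 318, and less Hopx, Pglyrp1, Fcgrt and Ahnak. They had more Rgcc, at 139 and 132 CPM against 63.1 and 59.1, and more Tspan32, Ramp1, Fdps, Actn2 and Rflnb. Rgcc, Ramp1 and Actn2 were therefore highest in cells with Ccr9 or Itgae, lower without any of the 3 genes and lower again with Ly6c2, in both libraries. Lef1 hardly moved along these sets, with log2 ratios of 0.11 and 0.13 against Ly6c2 cells and -0.10 and -0.05 against cells with Ccr9 or Itgae. Dntt was higher without Ly6c2, at 9.80 and 10.5 CPM against 2.88 and 3.59.

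Among themselves the naive cells had a variance over the mean near that of random sampling for most of the genes measured. Low counts pull this measure toward that value, so it cannot show that the cells varied little. Over 587 genes with at least 200 thinned UMIs in each library, the variance over the mean across cells had a median of 1.04 in the recipient and 1.05 in the donor, where 1 is the value for random sampling, and 33 genes reached 1.5 in both. Lars2, which encodes the mitochondrial leucyl-tRNA synthetase, stood apart at 15.8 and 18.3, and had like values in Ccl5 cells (14.8 and 18.4). The next were the cytoskeletal genes Actb, Actg1, Tmsb10 and Tmsb4x, Malat1, the interferon-induced gene Ifi27l2a (3.94 and 2.96), Crip1, Nfkbia, Igfbp4, Lgals1 and Dapl1 (2.43 and 2.45). Cells with at least 3 thinned UMIs summed over Ifit1, Ifit3, Isg15, Rsad2, Usp18 and Oasl2, all interferon-induced, were 1.61% and 1.17% of the naive cells, against 2.71% and 2.06% of Ccl5 cells.

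Receptor use, which the rule did not read, was broad. A leading Trbv segment, the variable part of the receptor beta chain, was found in 97.1% and 96.2% of naive cells. The most used were Trbv13-3 at 8.42% of recipient cells and Trbv19 at 8.88% of donor cells. The inverse Simpson index, the number of equally used segments that would give the same diversity, was 17.9 and 17.1, against 15.6 and 15.6 in Ccl5 cells. The share of cells that would have to change segment to make the libraries alike was 10.2% in naive cells and 19.1% in Ccl5 cells. Sampling alone adds to this share, and more so with fewer cells. The naive value rests on 701 and 428 cells with a segment and the Ccl5 value on 2554 and 5342. No interval was computed, so the 2 values cannot be compared directly and do not show a difference in segment use.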

How the data were processed

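Single-cell 5′ gene expression was measured in 2 libraries, with 1 library per group. The deposited values are UMI counts per gene and barcode from the authors' filtered matrices, per the file headers made with software version 3.0.2. Cell Ranger, Seurat and the build mm10 are named in the submitters' processing notes, and the annotation release is not given in the sources used here. Receptor libraries were not used here.

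Counts were summed over the cells of each set and library and given as CPM of the same cells, with exact Poisson intervals, and ratios with the exact conditional binomial interval. All intervals are at 95%. No test was possible with 1 library per group. The members and the gene lists were chosen with earlier results of these data known. Between libraries, the 12 highest and 12 lowest ratios among genes with at least 100 UMIs and at least 50 CPM in 1 library were named. Against Ccl5 cells the 10 highest and 10 lowest were named, and against cells with Ccr9 or Itgae and with Ly6c2 6 each way, by the library nearer 0. Receptor segments, ribosomal, mitochondrial and unnamed genes were left out, as were the rule's genes between cell sets, and fixed markers and list members were added. List medians use members with at least 20 UMIs. Shares and variation use cells thinned to 3500 UMIs, which leaves 685 and 429 naive cells. Doublets were not removed in the main analysis. Scrublet, run as an alternative through scanpy, marked 278 and 550 barcodes, 7 and 0 of them naive cells. Positions come from GENCODE M21 by Ensembl gene identifier, which placed 99.6% of 31017 symbols. Other alternatives were scaling by edgeR 4.0.16 and DESeq2 1.42.0 size factors, gene and cell minimums and variants of the rule. The calculations were tested on simulated data. Python 3.11.15, scipy 1.17.1, scanpy 1.11.5 and R 4.3.3 were used. Some genes of these rules and lists are not reported here.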

Additional observations from a re-analysis of the deposited data

Results flagged for a closer look

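Of 42 named genes, 4 had ratios of opposite sign in naive cells and in cells with at least 10 Ccl5 UMIs. For each of these 4, neither counting interval held 0. The 42 include Ccr9, Gzmk, Itgae and Ly6c2, which the rule set to 0 UMIs in naive cells and which could not be flagged. Cks2, a cyclin kinase subunit gene, had a log2 ratio of old recipient over young donor of -0.87 in naive cells and 0.25 in Ccl5 cells. Phf11b had -0.46 and 0.45. The ratios of Lef1, 0.13 in naive and -0.15 in Ccl5 cells, and of Cd8b1, 0.063 and -0.15, were small. The difference between the 2 kinds of cell was not tested for any of them, since each group is 1 library.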

How the results depend on the processing

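No paired analysis was possible because each group is 1 library and the labels give no replicate numbers. There were 18 settings, 1 of them chosen after seeing the data. That 1 left out naive cells with at least 3 UMIs of Lgals1, S100a4 and S100a6. Only part of the settings bear on gene ratios. Under these, 251 of 252 ratios of the 23 named genes past the fold kept their sign and 220 stayed past it. The exception was S100a6, at -0.012 without Ccl5-positive cells. The 23 include Ccl5, which the rule capped, and Cd44, with an interval of [-0.16, 1.23]. The settings share many cells, and most of these genes were named for extreme ratios in them, so the kept signs are a description. TMM and median-of-ratios scaling each moved ratios by -0.03.

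The share of naive cells in the recipient was 17.2% with the rule applied to thinned counts, 8.03% with Ccl5 at 0, 7.37% without the 3 most common Trbv segments and 9.64% without cells with Lgals1, S100a4 and S100a6. In the donor it was 7.44%, 4.12%, 3.19% and 4.10%. Genes higher in the recipient numbered 706 at a minimum of 20 UMIs and 11 at 400, and genes lower 490 and 7. Genes higher against cells with Ccr9 or Itgae numbered 16 without the cells with Lgals1, S100a4 and S100a6. The median of the cytotoxic list was -0.057 with Ccl5 at 0, -0.038 without those cells, -0.070 over members with at least 100 UMIs and 0.51 over members with at least 1 UMI. That of the recent thymic emigrant list was 0.43, and 1.02 with the rule on thinned counts, and that of the cell cycle list 0.31, and 2.17 over members with at least 1 UMI. The inverse Simpson index was 14.1 and 13.3 without the 3 most common Trbv segments. Genes with a variance over mean of at least 1.5 numbered 17 after thinning to 2000 UMIs and 141 without thinning. Apart from the alternatives' own construction, the cause of these changes was not tested. Counting error is wide at this depth, where 3 UMIs equal 0.600 and 0.930 CPM.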

Other observations

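Some genes with few UMIs in naive cells, named after their values were seen, had counting intervals that leave out equal levels. These intervals take no account of that choice among many genes, so the values are a description only. Cxcr4, a chemokine receptor gene, had 72 UMIs in 66 recipient cells and 3 UMIs in 3 donor cells (14.4 and 0.930 CPM), a log2 ratio of 3.95 [2.35, 6.26], and in Ccl5 cells it had 17.0 and 5.16 CPM. Ikzf2, the gene of the transcription factor Helios, had 29 UMIs in 22 recipient cells and 1 UMI in the donor, a ratio of 4.23 [1.63, 9.58], and 31.5 and 4.44 CPM in Ccl5 cells. Itm2a, a gene of developing and activated T cells, had 63 and 12 UMIs, a ratio of 1.76 [0.86, 2.79], but 40.3 and 44.8 CPM in Ccl5 cells. Izumo1r, which encodes folate receptor 4, had 42.4 and 23.3 CPM, a ratio of 0.87 [0.48, 1.27].

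Few naive cells held UMIs of cycling genes. After thinning, 3 of 685 recipient cells (0.438%) and 1 of 429 donor cells (0.233%) had at least 2 UMIs summed over Mki67, Top2a, Birc5, Ccnb2 and Cdk1, against 1.73% and 1.03% of Ccl5 cells. Mki67 had 17 UMIs in 6 recipient cells and none in the donor. There a count of 0 allows up to 0.856% of thinned cells to hold a UMI, which does not limit the share expressing the gene. Stmn1 had 84 and 19 UMIs, and 26 of the recipient UMIs lay in 1 cell.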
